A study of Mus musculus with 2 samples.

Results

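Complement is a set of plasma and cell surface proteins that mark and lyse microbes and clear damaged cells and immune complexes. The classical pathway starts when C1q binds, the protease C1r cuts the protease C1s, and C1s cuts C4 and C2. The alternative pathway starts on C3 with factor B, and both arrive at C3, the central component. Because C3 attaches to any nearby surface, inhibitors restrain each step, among them the C1 inhibitor in the fluid phase and CD55 and CD59 on the membrane. The liver makes most of the plasma proteins, and fibroblasts and macrophages of many tissues also transcribe them.

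Levels of 9 complement genes were followed here, of 27998 genes counted: the components C3, C4b and C2, the proteases C1s1, C1ra and Cfb, the fluid-phase inhibitor Serping1 and the membrane regulators Cd55 and Cd59a. They were taken from a list of complement components and regulators, and all 9 had UMIs in both libraries. The cells came from C57BL/6J mice, 10 animals in all, for which no treatment is named. Quadriceps, a limb muscle, and diaphragm, the respiratory muscle, were digested with collagenase and dispase, cleared by density separation and sorted on light scatter for viable cells. Cells of several animals were combined for each muscle into 1 library, so there was no replicate, no test across samples could be made, and muscle, animals and library cannot be told apart. The intervals below are 95% intervals and cover counting error only.

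Fibro-adipogenic progenitors (FAPs), the matrix-producing stromal cells of muscle, were barcodes with at least 1 UMI of Pdgfra and at least 50 UMIs of Dcn, a receptor and a matrix proteoglycan that mark them. They numbered 2339 of 5159 barcodes in quadriceps (45.3%) and 2010 of 2499 in diaphragm (80.4%), with medians of 10782 and 12575.5 UMIs per FAP. All 8 FAP markers had UMIs in both sets. Depth was 50854519 UMIs in quadriceps and 28545242 in diaphragm, and 5 barcode sequences occurred in both libraries. Over 5% of UMIs were mitochondrial in 56.9% of quadriceps and 33.1% of diaphragm barcodes, but the FAP medians were close, at 3.97% and 4.11%. The FAPs of the 2 libraries differed in other respects. Immediate early genes (Fos, Junb, Egr1 and Cyr61), which dissociation can induce, summed to a level of 1158 CPM (UMIs summed over cells and scaled to a common total) in quadriceps and 7983 CPM in diaphragm. The 8 smooth muscle and mural markers summed to 1874 and 158 CPM, with none at 0. The 6 mesothelial markers, of the cells that cover the diaphragm, summed to 7.27 CPM with 3 markers at 0 in quadriceps and to 109 CPM with 0 markers at 0 in diaphragm, of which Wt1 alone gave 92.9 CPM. Krt19 of this list went the other way, at 6.66 and 1.31 CPM. Macrophage markers were low in both, at 23.0 and 13.6 CPM over 8 genes, with 1 of them at 0 in diaphragm.

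Of the 9 genes, 3 lie together on chromosome 17 (GRCm38, GENCODE M21): C4b (ENSMUSG00000073418) at chr17:34728380-34743882, Cfb (ENSMUSG00000090231) at chr17:34856374-34862518 and C2 (ENSMUSG00000024371) at chr17:34862604-34898265, all on the minus strand. Cfb and C2 are 85 bases apart and C4b is 112491 bases from Cfb. C3 (ENSMUSG00000024164) is at chr17:57203970-57228136, also on the minus strand. C1ra (ENSMUSG00000055172) at chr6:124512405-124523443 on the plus strand and C1s1 (ENSMUSG00000038521) at chr6:124530345-124542359 on the minus strand point towards each other, 6901 bases apart. Serping1 (ENSMUSG00000023224) is at chr2:84765387-84775444 and Cd55 (ENSMUSG00000026399) at chr1:130439027-130462744, both on the minus strand, and Cd59a (ENSMUSG00000032679) is at chr2:104095801-104115354 on the plus strand. Each is an annotated protein-coding gene.

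Upstream sequences are shown for C3, the central component, and Cd55, its membrane regulator, and for the paired proteases C1ra and C1s1. They are the 250 bases before the RefSeq start (GRCm38.p6), read 5′ to 3′ on the gene's strand, and 5 of the 9 genes had an entry. Capitals mark matches, on either strand, to TATAAA (core promoter box), TTGCNNAA (C/EBP), TTCNNNGAA (STAT), the interferon-stimulated response element or CCGCCC (Sp factors). These patterns were found in 12.4%, 9.56%, 7.02%, 2.98% and 32.7% of all 32851 upstream sequences of that length, and a match is a description of the letters, not a site. The windows are chr17:57228137-57228386 (minus strand) for C3, chr1:130462745-130462994 (minus) for Cd55, chr6:124512371-124512620 (plus) for C1ra, whose RefSeq start lies inside the GENCODE gene, and chr6:124542360-124542609 (minus) for C1s1.
C3: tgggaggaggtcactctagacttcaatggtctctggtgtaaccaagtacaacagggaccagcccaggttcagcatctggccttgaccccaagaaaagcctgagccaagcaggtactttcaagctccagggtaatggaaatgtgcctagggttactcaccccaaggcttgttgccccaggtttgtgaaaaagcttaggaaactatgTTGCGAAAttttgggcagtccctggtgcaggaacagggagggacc
Cd55: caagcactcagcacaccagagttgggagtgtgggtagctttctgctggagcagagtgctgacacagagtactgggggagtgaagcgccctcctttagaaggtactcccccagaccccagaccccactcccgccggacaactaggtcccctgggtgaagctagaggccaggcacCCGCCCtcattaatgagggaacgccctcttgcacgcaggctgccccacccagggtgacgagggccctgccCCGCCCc
C1ra: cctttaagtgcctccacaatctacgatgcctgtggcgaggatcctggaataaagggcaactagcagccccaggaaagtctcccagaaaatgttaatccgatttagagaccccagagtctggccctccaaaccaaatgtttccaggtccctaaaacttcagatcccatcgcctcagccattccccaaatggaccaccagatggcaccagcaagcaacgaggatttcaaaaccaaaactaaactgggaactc
C1s1: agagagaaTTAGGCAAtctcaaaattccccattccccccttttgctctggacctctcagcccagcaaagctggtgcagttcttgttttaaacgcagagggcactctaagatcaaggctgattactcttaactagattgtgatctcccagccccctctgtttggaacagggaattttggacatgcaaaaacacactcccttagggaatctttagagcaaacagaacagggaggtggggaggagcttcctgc
C3 held 1 C/EBP match, 45 bases before the start, and Cd55 held 2 Sp matches, 77 and 7 bases before it. G and C made up 52% of the C3 window and 64% of the Cd55 window. C1s1, for which the start farther upstream of 2 in the table is shown, held 1 C/EBP match at 242 bases, and C1ra held none of the 5 patterns.

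The first comparison asked how strongly FAPs of each muscle carried these transcripts. C3 had 35973 UMIs in quadriceps FAPs, or 1354 CPM (1340 to 1369), and 37068 UMIs in diaphragm FAPs, or 1428 CPM (1413 to 1442). Serping1, which encodes the C1 inhibitor that blocks C1r and C1s, was at 2242 CPM (2224 to 2260) in quadriceps and 2444 CPM (2425 to 2463) in diaphragm, with a UMI in 99.9% and 100% of the FAPs. Both were thus present in most or nearly all FAPs of both muscles, at levels that differed little. The classical proteases were also close between muscles, C1s1 at 622 and 543 CPM and C1ra at 409 and 452 CPM. Cd55, the decay-accelerating factor that takes C3 convertases apart, was at 342 CPM in quadriceps and 251 CPM in diaphragm. C4b, the C4 component of the classical pathway, was at 117 and 50.2 CPM, Cfb, factor B, at 61.6 and 22.7 CPM, and C2, which C1s cuts, at 29.8 and 13.4 CPM. These 3 were lower in diaphragm beyond their intervals. So were C1s1 and Cd55 by smaller ratios, while C3, C1ra and Serping1 were higher beyond theirs. Cd59a, which blocks the membrane attack complex, was at 7.42 and 6.78 CPM. At 50 CPM or more were 7 members in quadriceps and 6 in diaphragm.

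**Figure D1:**
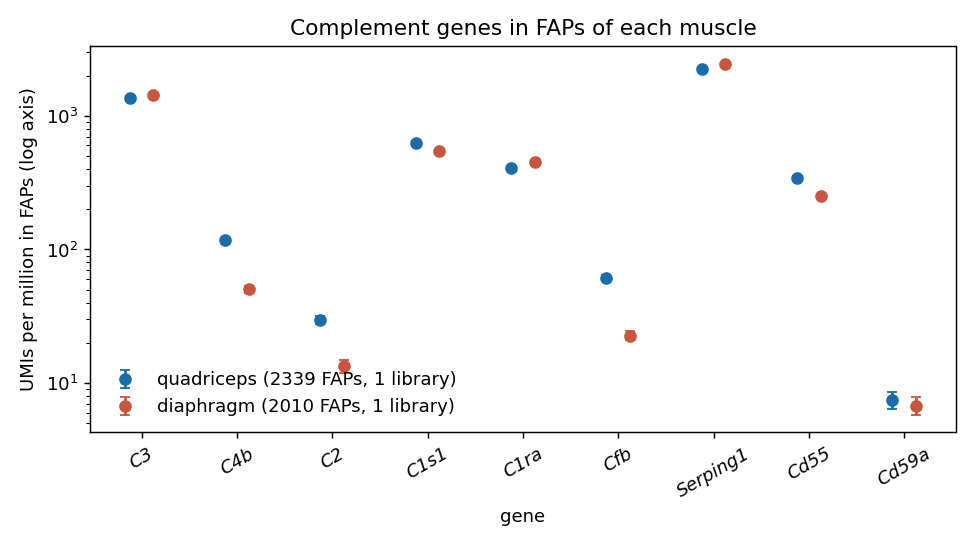
Level of each complement gene in FAPs of quadriceps (blue) and diaphragm (red), in CPM on a log axis, from the FAPs of 1 library each. Bars are exact Poisson 95% intervals for counting error. C4b, C2 and Cfb sit lower in diaphragm, while C3, C1s1, C1ra and Serping1 lie close together.

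The share of FAPs with a UMI was compared at 1 depth, since it rises with depth. Every barcode was thinned to 3000 UMIs, which kept 2320 of 2339 quadriceps and 2006 of 2010 diaphragm FAPs, and T cell-like and NK cell-like cells served as the background of free RNA, with 176 of 209 cells kept in quadriceps and 78 of 91 in diaphragm (their median depths before thinning were 4392 and 5364 UMIs). C3 was seen in 62.3% of quadriceps FAPs (60.3% to 64.3%; 73.0% before thinning) and in 5.11% of the background cells (2.36% to 9.49%). In diaphragm the C3 shares were 67.5% (78.3% before thinning) and 6.41%. Both thus stood far above background. C4b was seen in 11.5% of quadriceps FAPs against 0.568% of background cells (0.0144% to 3.12%; 21.5% of FAPs before thinning), and in 7.58% of diaphragm FAPs (13.4% before thinning) against 0 of 78 cells, which allows a share of up to 3.85%. Cfb was seen in 14.2% and 5.43% of FAPs (32.9% and 12.9% before thinning), with 0 background cells in either muscle, which allows up to 1.70% and 3.85%. For C2 the quadriceps share was 8.02% (15.5% before thinning) against at most 1.70%, but the diaphragm share of 3.79% (3.00% to 4.72%; 9.20% before thinning) lay within the background interval of 0.0325% to 6.94%. Cd59a was seen in 1.59% and 1.74% of FAPs (5.94% and 7.31% before thinning). This is no more than the limits of 1.70% and 3.85% that 0 background cells allow. Over all FAPs, expression of Cd59a was thus not detectable over background at this depth, and its levels by subcluster are given below. Cd55 was also present in the lymphocytes, at 15.9% of the quadriceps background cells, and in 45.9% of quadriceps FAPs (70.3% before thinning).

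UMIs per cell varied among FAPs. C3 had a median of 6 UMIs per quadriceps FAP, 47 UMIs at the 90th percentile and 114 at most, and in diaphragm a median of 11, 47 at the 90th percentile and 359 at most. C4b had a median of 0, 3 at the 90th percentile and 65 at most in quadriceps, and 0, 1 and 46 in diaphragm. So most FAPs had no C4b UMI, while single cells had many.

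The second comparison set the FAPs of the muscles side by side. Of 7 members with at least 50 CPM in one muscle, 2 differed at least 2-fold, C4b and Cfb, and both were lower in diaphragm. Among all 3309 genes tested by this rule, 6.71% differed in either direction, and 3.05% were lower in diaphragm. Cfb reached the level limit through quadriceps alone, the muscle where it was higher, so nothing is read from this count. C4b was 2.33-fold lower in diaphragm (interval 2.18 to 2.48, log2 -1.20) and Cfb 2.71-fold lower (2.47 to 2.99, log2 -1.40). C2, below the level limit in both, was 2.23-fold lower (1.96 to 2.54). The other members differed less: the log2 ratio of diaphragm over quadriceps was 0.08 for C3, 0.14 for C1ra, 0.12 for Serping1, -0.20 for C1s1 and -0.44 for Cd55. For Cd59a the interval of the ratio, 0.741 to 1.13, held 1. The median log2 ratio of the genes at 50 CPM or more in both muscles was -0.08.

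Diaphragm FAPs had lower C4b and Cfb and higher immediate early genes (above). With those genes restricted, C4b and Cfb of diaphragm were lower still, and the muscles lay further apart. Whether these genes bear on the difference was not tested. In the 1988 quadriceps and 391 diaphragm FAPs with at most 0.2% immediate early UMIs, a limit chosen after the data were seen, C4b was at 114 and 30.3 CPM (log2 -1.88) and Cfb at 60.5 and 12.5 CPM (log2 -2.19). C3 changed its sign there, to a log2 ratio of -0.25. In FAP-like clusters in place of the gate, which leave out the diaphragm cells led by Mfap4 and Thbs4, C4b was at 121 and 70.9 CPM (log2 -0.76), short of 2-fold, while Cfb was at 64.5 and 30.2 CPM (log2 -1.07). In that diaphragm cluster C4b was at 4.44 CPM. With FAPs thinned to 3000 UMIs the C4b ratio also fell short, at log2 -0.98.

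Within FAP subclusters that held at least 30 cells of each muscle (below), C2 and Cfb were lower in diaphragm in 6 of 6 and C4b in 5 of 6. Few of these reached 50 CPM in a muscle: C4b did in 3 of the 6, Cfb in 2 and C2 in 1, C2 in the Prg4 Ptn cells rested on 3 diaphragm UMIs, and C2 in diaphragm FAPs was not separable from background (above). The log2 ratio ran from -2.53 to -0.84 for Cfb, from -2.00 to -0.89 for C2 and from -2.22 to 0.34 for C4b, whose exception was the Cxcl14 Hsd11b1 subcluster at 9.25 and 12.0 CPM. There and in the Prg4 Ptn subcluster (20.8 and 17.3 CPM) the interval of the C4b ratio held 1. Serping1 was higher in diaphragm in 6 of 6, but by at most 0.32. C3 was higher in 4 of 6, from -0.81 to 1.29, so its near-equal level over all FAPs came with differences of both signs within subclusters.

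**Figure D2:**
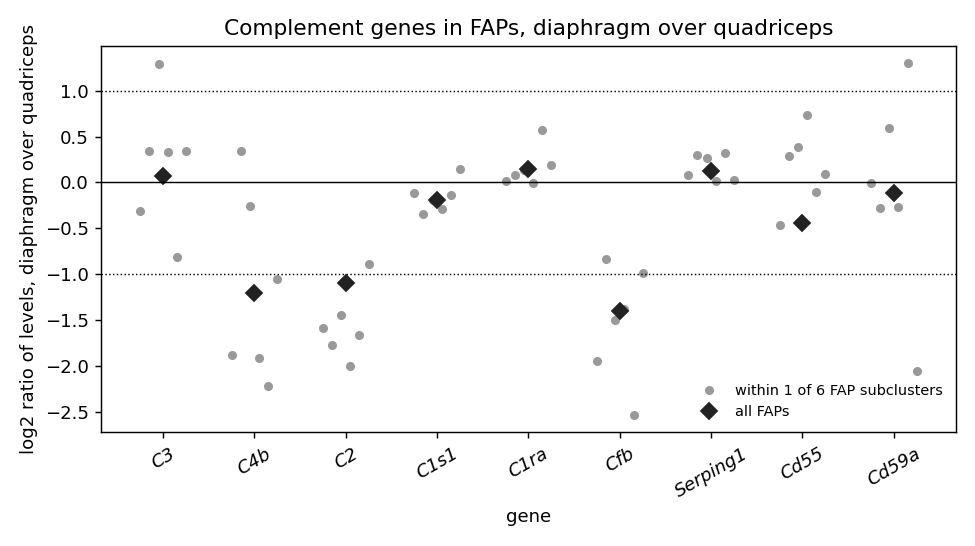
Log2 ratio of levels in diaphragm over quadriceps for each gene, over all FAPs (black diamonds) and within each of 6 FAP subclusters with at least 30 cells per muscle (grey points). Dotted lines mark 2-fold. All 6 subclusters lie below 0 for C2 and Cfb, while C3 and Cd55 have points on both sides.

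Other complement genes of FAPs moved in both directions. The list held 47 further genes of the pathway, of which 46 were analysed here. C7, a part of the membrane attack complex, was at 32.6 CPM in quadriceps and 75.4 CPM in diaphragm, 2.31-fold higher (2.13 to 2.51), where 3.66% of all genes tested were at least 2-fold higher in diaphragm. C7 reached the level limit through diaphragm alone, so nothing is read from this call. Another 4 that reached 50 CPM in FAPs were lower in diaphragm but not past 2-fold: Clu (clusterin, 139 and 69.9 CPM), Colec12 (a collectin scavenger receptor, 190 and 141 CPM), Vtn (vitronectin, 99.4 and 77.4 CPM) and Cr1l (Crry, a membrane regulator of C3 in rodents, 115 CPM in quadriceps and 1.27-fold lower).

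Transcripts of many plasma components were near 0 in FAPs. C1qa, C1qb and C1qc, the subunits that start the classical pathway, were at 0.904 to 1.36 CPM in quadriceps FAPs, although the proteases C1ra and C1s1 that C1q activates were high. Hc, the mouse C5 gene, had 0.0377 CPM there, and C6, C8a, C8b and C9 had 0 UMIs in FAPs of both muscles. Cfd, the protease that cuts factor B, was at 0.0377 CPM in quadriceps FAPs and had 0 UMIs in diaphragm FAPs. In the quadriceps cells of a cluster led by Lyz2 and S100a9 (81 cells), which held macrophage and neutrophil markers and was left unnamed, C1qa was at 700 CPM, C1qb at 779 CPM and C1qc at 477 CPM, with C3 at 156 CPM and Cfp, properdin, at 186 CPM.

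The third comparison asked which cell classes carried each gene. Classes were clusters of both libraries together, made without any complement gene and named from marker lists, and FAP-like clusters held 2155 of the 2339 quadriceps FAPs but 1384 of the 2010 diaphragm FAPs. Another 657 diaphragm barcodes formed the unnamed cluster led by Mfap4 and Thbs4, which held FAP and tenocyte markers, and most FAP-like clusters were largely of 1 library. Classes with at least 30 cells are given, and for quadriceps these were 9 named ones. Of the 9 genes, 5 were highest in FAP-like cells among them: C3, C1s1, C1ra, Cfb and Serping1. The share of all genes highest in FAP-like cells was not determined, so this count is a description only. C4b and C2 were highest in tenocyte-like cells, Cd55 in B cell-like cells and Cd59a in Schwann-like cells. Unnamed clusters were left out of this ranking. With them, only the top of C1s1 would change, to the cluster led by Apod and Slpi (709 CPM, against 638 CPM in FAP-like cells). In diaphragm C3 was at 2179 CPM in a cluster led by Hbb-bs and Hba-a1 and at 1887 CPM in FAP-like cells. The intervals of both pairs overlapped.

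**Figure D3:**
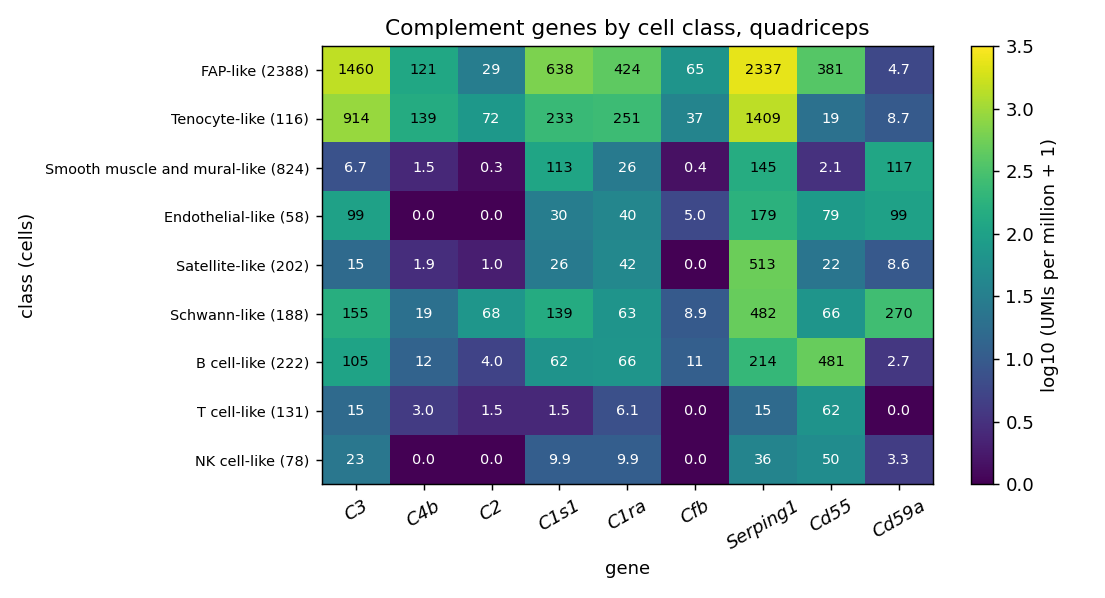
Level of each gene (columns) in the 9 named quadriceps classes (rows, with cell numbers), printed in CPM and coloured by log10 of that level plus 1. FAP-like and tenocyte-like cells are bright for most genes, and Cd59a is bright in Schwann-like, smooth muscle and mural-like and endothelial-like cells instead.

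C3 was at 1460 CPM in the 2388 FAP-like and 914 CPM (856 to 974) in the 116 tenocyte-like cells of quadriceps, then at 155 CPM in Schwann-like, 105 CPM in B cell-like and 99.4 CPM (60.7 to 153) in endothelial-like cells. The interval of the endothelial-like cells overlapped those of both neighbours. Only 4.95% of B cell-like cells held the C3 UMIs of that class, and Dcn stood at 10.6% of its FAP level in it. That cluster held 9 Scrublet calls and 7 FAPs by the gate, and their part in its C3 level was not tested. In smooth muscle and mural-like cells, with 824 cells the largest other class, C3 was at 6.69 CPM, 0.494% of its FAP level.

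C4b did not differ between tenocyte-like (139 CPM, 118 to 164) and FAP-like cells (121 CPM, 117 to 125) beyond the intervals. The C2 level was 71.6 CPM (56.2 to 89.9) in tenocyte-like, 68.0 CPM (54.3 to 84.2) in Schwann-like and 29.0 CPM (26.9 to 31.2) in FAP-like cells. The first pair overlapped and both stood above the FAP-like cells. In Schwann-like cells C2 was thus at 228% of its level in FAPs, whereas Dcn was at 26.0%, C3 at 11.5% and C4b at 15.9%. The cluster held 8 Scrublet doublet calls, and 11.7% of its quadriceps cells had a C2 UMI. Cfb was at 64.5 CPM in FAP-like cells, 36.8 CPM (26.0 to 50.5) in tenocyte-like cells and below 11 CPM in the other 7 classes.

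Serping1 and C1s1 were not limited to stromal cells. Satellite-like cells, the muscle stem cells, had Serping1 at 513 CPM (470 to 558) with a UMI in 79.7% of 202 cells, or 22.9% of the FAP level, while C3 stood at 1.13% and Dcn at 3.58% of the FAP level in the same cells. Smooth muscle and mural-like cells had C1s1 at 113 CPM (107 to 119) with a UMI in 71.7% of cells, or 18.2% of the FAP level, while Dcn stood at 0.294%. The part of free RNA in these levels was not tested. C1ra, the partner of C1s1, was at 26.0 CPM in smooth muscle and mural-like cells, 6.36% of its FAP level. In quadriceps T cell-like and NK cell-like cells had at most 36.5 CPM of Serping1 and 9.94 CPM of C1s1, and diaphragm T cell-like cells had 55.6 CPM of Serping1.

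The membrane regulators followed other cells. Cd55 was at 481 CPM (432 to 533) in B cell-like cells, with a UMI in 77.0% of 222 cells, above the 381 CPM (373 to 388) of FAP-like cells, and at 2.12 CPM in smooth muscle and mural-like cells. In diaphragm the order was turned, with 307 CPM (299 to 315) in FAP-like and 216 CPM (163 to 281) in 48 B cell-like cells. Cd59a was at 270 CPM (241 to 300) in Schwann-like cells, with a UMI in 72.9% of 188 cells, at 117 CPM (111 to 123) in smooth muscle and mural-like and at 99.4 CPM (60.7 to 153) in endothelial-like cells. The last 2 of these overlapped. FAP-like cells had 4.68 CPM of Cd59a, and tenocyte-like and satellite-like cells 8.71 and 8.57 CPM. In quadriceps Cd55 and Cd59a were thus high in different classes: smooth muscle and mural-like cells had Cd59a with little Cd55, and FAP-like cells the reverse. Most cells of these classes were over 5% mitochondrial: at or below it only 3 smooth muscle and mural-like, 28 Schwann-like, 11 endothelial-like, 23 satellite-like and 24 tenocyte-like cells were left, under the 30 needed for a class, and all 9 genes were then highest in FAP-like cells among the 4 classes still compared.

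Receptors of complement fragments were near 0 in FAPs. Itgb2, Itgam and Itgax, which form the integrin receptors of C3 fragments, were at 365, 205 and 123 CPM in NK cell-like cells and below 1 CPM in FAPs. Cr2, the C3d receptor of B cells, was at 112 CPM in B cell-like cells and Cd93 at 258 CPM in endothelial-like cells, where Clu reached 1173 CPM. C3ar1 and C5ar1, the receptors of the cleaved fragments of C3 and C5, were at 0.264 and 0.565 CPM in quadriceps FAPs. Of the 46 further genes, 11 reached 50 CPM in FAPs or in a named class, and 35 did not.

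Against all other barcodes of the library, 7 of the 8 members tested in quadriceps were at least 2-fold higher in FAPs (24.1% of all genes tested were), and Cd59a was lower (14.9% were, and 39% differed either way). C4b, C1ra and Cfb reached the level limit through FAPs alone and Cd59a through the other barcodes alone, so nothing is read from these counts. C3 was 10.0-fold higher (9.66 to 10.4) and Cfb 12.9-fold higher (10.7 to 15.7), while Cd59a was 12.7-fold lower. Among barcodes with at most 5% mitochondrial UMIs, 4 stayed past 2-fold, and C3, C4b and Cd55 had log2 ratios of 0.83, 0.65 and 0.35. In diaphragm 3 of 6 were higher, C1s1, C1ra and Serping1 (14% of all genes tested were, and 25.1% differed either way). C3 was 1.81-fold higher (1.73 to 1.89) in diaphragm FAPs than in the other barcodes. Those other barcodes included stromal cells below the gate and barcodes with mesothelial markers (below). The part of either in this ratio was not tested. Barcodes just inside and just outside the Dcn limit are given as a description: C3 was at 1982 CPM in the 27 quadriceps FAPs with 50 to 59 Dcn UMIs and at 1464 CPM in the 33 barcodes with 40 to 49, and Serping1 at 1840 and 1351 CPM. C4b had 18 UMIs in the former and 1 UMI in the latter.

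Among all barcodes of diaphragm, 13 had UMIs of both Msln and Upk3b, which mark mesothelium, and 2 of these passed the FAP gate. C3 was at 6024 CPM (5654 to 6413) in them, C2 at 820 CPM (687 to 971), C4b at 367 CPM (280 to 472) and Cfb at 141 CPM (89.2 to 211). Each of these 4 was above its level in diaphragm FAPs, while Serping1 (1859 CPM, 1656 to 2080) and Cd55 (36.7 CPM, 13.5 to 79.9) were below theirs. These cells were picked by 2 markers after the data were seen and were too few for a class.

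The fourth comparison asked how the genes varied among FAPs. FAPs of the pooled libraries were clustered anew on values standardised per library, again without complement genes, which gave 9 subclusters named by leading genes. As genes that vary with complement genes were used, levels by subcluster are a description. Of the 9 members, 6 were highest in the one led by Gdf10 and Apoe (302 quadriceps and 358 diaphragm cells, 12.9% and 17.8% of FAPs): C4b, C2, C1s1, C1ra, Cfb and Serping1. No share over all genes was set beside this count, so nothing is read from it. At a finer resolution, with 13 subclusters, 1 of the 9 was highest in the Gdf10-led one, where C4b was at 270 CPM in both muscles together, against 342 CPM. In quadriceps C4b was at 576 CPM (550 to 603) in it and at 52.9 CPM in all other FAPs, and in diaphragm at 152 CPM (140 to 165) and 31.6 CPM. C2 was at 147 and 13.4 CPM in quadriceps and at 36.0 and 9.24 CPM in diaphragm. Cfb was at 168 and 46.7 CPM in quadriceps and at 64.2 and 15.1 CPM in diaphragm. The subcluster held 60.2% of the C4b UMIs, 60.4% of C2 and 33.4% of Cfb of quadriceps FAPs, and 46.7%, 41.5% and 43.6% in diaphragm, but 1.98% and 5.72% of the Cd55 UMIs.

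**Figure D4:**
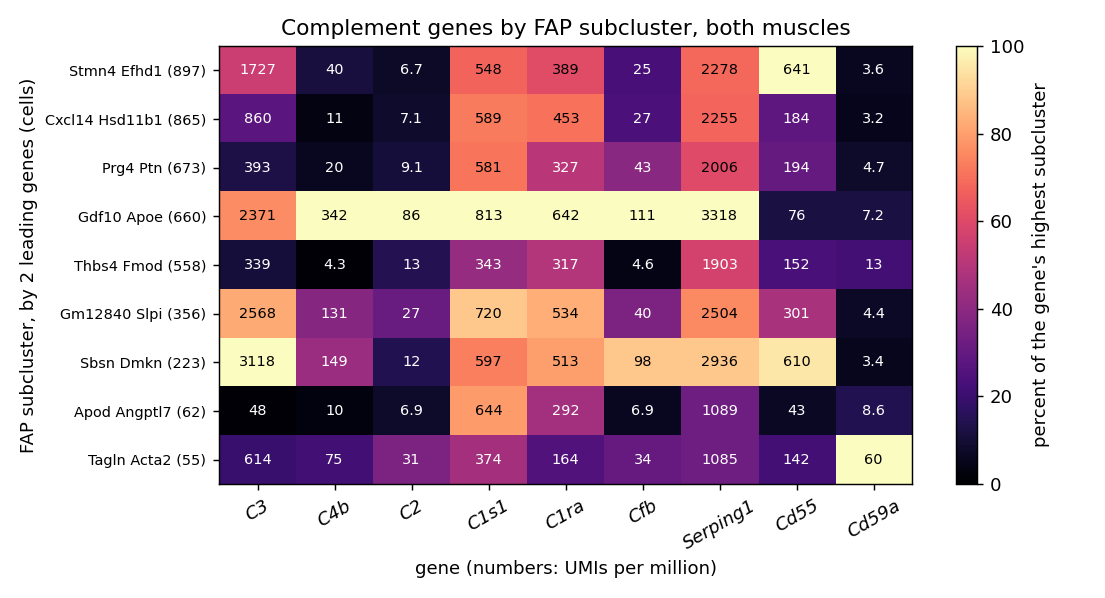
Level of each gene (columns) in the 9 FAP subclusters of both muscles (rows, named by 2 leading genes, with cell numbers), printed in CPM and coloured as a percent of the gene's highest subcluster. The Gdf10 Apoe row is brightest for 6 genes and dark for Cd55, which is brightest in the Stmn4 Efhd1 and Sbsn Dmkn rows.

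By the 2-fold rule, C4b, C2 and Cfb were higher in the Gdf10-led cells of quadriceps (3 of 8 tested; 3.43% of all genes were) and Cd55 was lower (3.37% were, and 6.8% differed either way). In diaphragm C3, C4b and Cfb were higher (3 of 7 tested; 1.45% were) and Cd55 was lower (2.35% were, and 3.81% differed either way). C2 in quadriceps and Cfb in both muscles reached the level limit through the Gdf10-led cells alone, as did C4b in diaphragm, and this subcluster was singled out for its levels of these genes, so nothing is read from these counts. The C4b ratio was 10.9 (10.1 to 11.7) in quadriceps and 4.81 (4.31 to 5.37) in diaphragm. The C3 ratio was 1.66 and 2.15, and those of C1s1, C1ra and Serping1 ran from 1.46 to 1.71, so the rise was uneven among the members. Of the further pathway genes, C7 (142 against 17.4 CPM) was past 2-fold in quadriceps and Clu (137 against 57.7 CPM) in diaphragm. C7 reached the level limit there through the Gdf10-led cells alone.

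C3 was highest in another subcluster, the one led by Sbsn and Dmkn (215 of its 223 cells from quadriceps), at 3118 CPM (3054 to 3182), and reached 2568 CPM in that led by Gm12840 and Slpi (321 of its 356 cells from diaphragm; Has1, Tnfaip6 and Socs3 follow among its leading genes). It was lowest, at 48.4 CPM, in 62 cells led by Apod and Angptl7, a 64.4-fold range. C4b was at 131 CPM in the Gm12840 Slpi cells and at 149 CPM in the Sbsn Dmkn cells, and down to 4.28 CPM in the 558 cells led by Thbs4 and Fmod. Cd55 was highest in the 897 cells led by Stmn4 and Efhd1, at 641 CPM (626 to 656), followed by the Sbsn Dmkn cells at 610 CPM (582 to 639), and these did not differ beyond their intervals. By contrast C1s1 spanned 2.37-fold, Serping1 3.06-fold and C1ra 3.92-fold over the 9 subclusters. For Cd59a the highest subcluster was 55 quadriceps cells led by Tagln and Acta2, at 60.3 CPM, of which 50 were doublet calls and whose leading genes are of smooth muscle. In diaphragm Cd59a was highest in the 491 cells led by Thbs4 and Fmod, at 14.4 CPM (11.6 to 17.6). Before thinning 15.1% of them had a UMI, and they held 53.4% of the Cd59a UMIs of diaphragm FAPs. This subcluster was not compared with background.

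C4b, Cfb and C2 stood higher in the Gdf10-led cells, while the genes between them differed little. The subcluster was singled out for its C4b, Cfb and C2 levels, so nothing is read from this contrast. In the stretch of chromosome 17 from C4b to C2, 10 genes were counted. Stk19, Dxo, Skiv2l and Nelfe, housekeeping genes that lie between C4b and Cfb, had log2 ratios of the Gdf10-led over the other FAPs between -0.30 and 0.32 in quadriceps and between -0.01 and 0.20 in diaphragm. The ratios of C4b, Cfb and C2 were 3.42, 1.83 and 3.36 in quadriceps and 2.23, 2.02 and 1.85 in diaphragm. Cyp21a1, between C4b and Stk19, was below 3 CPM in FAPs, as was Zbtb12 in antisense to C2. Gm20547, which overlaps Cfb and C2 on the same strand, had 0 UMIs in FAPs, and whether reads shared with it were lost from Cfb and C2 was not tested.

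**Figure D5:**
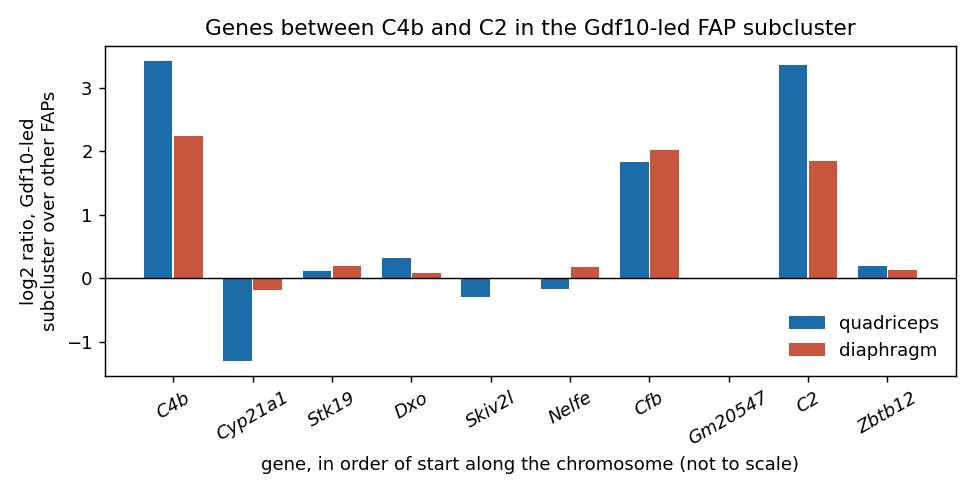
Log2 ratio of levels in the Gdf10-led FAP subcluster over the other FAPs, for the 10 counted genes from C4b to C2 in their order along the chromosome (not to scale), in quadriceps (blue) and diaphragm (red). C4b, Cfb and C2, for whose levels the subcluster was singled out, stand above 1.8 in both muscles, and Stk19, Dxo, Skiv2l and Nelfe lie within 0.32 of 0.

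The study separates FAPs rich in Fbn1 (fibrillin) from those rich in Lum (lumican), and the members were compared along that axis. With a cut at 2-fold between the UMIs of the 2 genes, 783 quadriceps FAPs were Fbn1-rich, 988 Lum-rich and 568 between, and in diaphragm 222, 1212 and 576. The cut is a range and not a type, and 347 and 328 cells lay within 1.2-fold of a limit. In quadriceps 2 of 7 members tested were higher in Fbn1-rich cells (6.14% of all genes were, and 12% differed either way) and in diaphragm 1 of 6 (5.21% were, and 9.08% either way). None of those tested was higher in Lum-rich cells (5.84% and 3.86% were). Cd55 was at 661 CPM in Fbn1-rich and 104 CPM in Lum-rich cells of quadriceps, a ratio of 6.34 (5.94 to 6.77), and at 681 and 141 CPM in diaphragm, a ratio of 4.81 (4.53 to 5.11). C3 was at 2133 and 776 CPM in quadriceps (ratio 2.75, 2.68 to 2.82) but at 1658 and 1274 CPM in diaphragm (1.30, 1.26 to 1.34). C2 was lower in Fbn1-rich cells of quadriceps, at 14.2 and 45.0 CPM. In diaphragm C2 was at 19.9 and 15.3 CPM, and the interval of that ratio, 0.973 to 1.72, held 1. C4b and Cfb did not differ beyond their intervals in quadriceps, with ratios of 0.982 (0.901 to 1.07) and 0.926 (0.827 to 1.04).

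Over single FAPs C3, C4b, C2, C1s1, C1ra, Cfb and Serping1 were all positively correlated with each other in both muscles. Pearson's r between C4b and Cfb was 0.47 over the 2339 quadriceps and 0.48 over the 2010 diaphragm FAPs, and after thinning to 3000 UMIs it was 0.29 and 0.28. For C1ra and Serping1 it was 0.46 and 0.40 (0.25 and 0.19 thinned), and for C3 and C1s1 0.28 and 0.51 (0.20 and 0.34 thinned). For C4b and Cd55 it was -0.19 and -0.12. The cells share a library, and depth moves these values, so they are descriptions. Among 8203 genes detected in 10% or more of the FAPs on each side, those most like C4b were Cfb, C3, Tmem176b, Sfrp1 and Serpina3n, from 0.28 to 0.48. Those most like C3 were Ifi205, Efemp1, Fn1, Ly6a and Ly6c1 (0.41 to 0.58). For Serping1 they were C1ra, Serpinf1, Rarres2, Dpep1 and Gpx3 (0.35 to 0.49), and for Cd55 they were Fbn1, Efhd1, Fstl1, Uap1 and Ackr3 (0.47 to 0.66). After thinning, 13 of these 20 names stayed among the 5 most alike.

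Some members have near copies with which reads can be shared. Of the 50-base words in the last 500 bases of the longest annotated transcript, 19.1% of those of C1ra also occur in C1rb, 18.0% of C1s1 in C1s2 and 38.1% of C4b in C4a, but 0% of Cd55 in Cd55b or of Cd59a in Cd59b. C1rb and C1s2 were counted at 0.0753 and 0.226 CPM in quadriceps FAPs, and C4a was not analysed here. Levels of C1ra, C1s1 and C4b are uncertain to the extent that such reads were dropped.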

How the data were processed

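Mononuclear cells of mouse quadriceps and diaphragm were assayed by 3′ single-cell RNA sequencing, with 1 library per muscle. The deposited matrices hold raw UMI counts per gene for each barcode. The authors produced these counts with Cell Ranger 3.0.0 on mm10 (GRCm38), and the submitters' processing notes also name Seurat. Counts were used as deposited, with no barcode removed before the FAP gate. UMIs were summed over cells of a group and scaled to CPM, with exact Poisson intervals for levels, exact conditional intervals for ratios and exact binomial (Clopper-Pearson) intervals for shares, all at 95%. A count of 0 was given a limit of 3 counts. As each muscle has 1 library, no p-value was computed, and a gene was called different past 2-fold if it had at least 50 CPM in the higher group, on the scale log2(CPM + 1).

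For classes, 5010 quadriceps and 2430 diaphragm barcodes with at least 1000 UMIs and no more than the median plus 3 median absolute deviations were clustered together (2000 variable genes, 20 components, 20 neighbours, Leiden resolution 1.0) in Scanpy 1.11.5 with leidenalg 0.10.2. FAPs were clustered on 10 components at resolution 0.5 after scaling within each library. Complement genes were left out of both. A cluster was named "-like" from marker lists, by a rule set after the clusters were seen: at least 3 of its markers seen, no other type with more raised markers or more markers among the top 10 genes, a marker of its own there where depth was low, and at most 10% Scrublet calls. Scrublet called 95 quadriceps barcodes and 3 of 2499 in diaphragm, too few for the caller to have worked there, and no barcode was removed for it. For likeness, the 5 genes with the largest smaller r of the muscles to C3, C4b, Serping1 and Cd55 were named. All 9 members were named, and of the further pathway genes those reaching 50 CPM in FAPs or a named class, with some near 0 or in an unnamed cluster added after their values were seen. One gene of the pathway list is not reported here. The members and lists were chosen with earlier results of these data known. Analyses used Python 3.11.15, NumPy 2.4.6, SciPy 1.17.1, pandas 2.3.3 and scikit-learn 1.9.0, with figures in matplotlib 3.10.9, and the fold calls, intervals and thinning were checked on simulated data. Alternatives covered the gate, doublets, mitochondrial limit, depth, scaling, pseudocount, level limit and clustering.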

Additional observations from a re-analysis of the deposited data

Results flagged for a closer look

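Serping1 differed in sign between the muscles along the Fbn1 to Lum axis: the log2 ratio of Fbn1-rich over Lum-rich FAPs was 0.23 in quadriceps (2451 and 2083 CPM) and -0.19 in diaphragm (2197 and 2502 CPM). Each muscle has 1 library, so this difference was not tested. Neither value reached 2-fold.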

How the results depend on the processing

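No paired analysis was possible because each muscle has 1 library, and for the same reason no replicate could be left out. Of 2 members past 2-fold between muscles, 1 remained past it (Cfb) in FAP-like clusters, in FAPs within those clusters and after thinning to 3000 UMIs. The log2 ratio of C4b ran from -1.88 to -0.76 over the alternatives and that of Cfb from -2.19 to -1.07, and both were most negative with few immediate early UMIs, the alternative chosen after seeing the data. Without a level limit 1058 genes in place of 222 passed 2-fold between muscles, 4268 in place of 1426 between quadriceps FAPs and other barcodes and 3356 in place of 877 in diaphragm, and at 200 CPM or more they were 96, 495 and 282, since the number of genes tested changes. At no more than 5% mitochondrial UMIs, 4 in place of 7 members were higher in quadriceps FAPs, and 9 in place of 5 were highest in FAP-like cells, as fewer classes remained. Against diaphragm cells outside FAP-like and tenocyte-like clusters, 5 in place of 3 members were higher in FAPs. At Leiden resolution 0.8, 1 in place of 6 members was highest in the Gdf10-led subcluster, and the cause was not tested. After thinning, 13 of 20 genes most like the members were kept. No direction of a called member was reversed in these runs. With 1 library per muscle the intervals hold counting error only. Levels near those of T and NK cells (Cd59a over all FAPs, and C2 in diaphragm FAPs) could not be separated from background.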
